A study of Mus musculus with 12 samples.

Results

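The lysosome, cathepsin and V-ATPase genes are 51 genes named one by one from what they encode: 13 lysosomal proteases and cathepsins, 5 lysosomal membrane proteins, the 3 mucolipin channels, 6 subunits of the membrane sector V0 and 7 of the cytosolic sector V1 of the vacuolar proton pump (V-ATPase), 8 glycosidases, 6 proteins of lipid and saposin handling, and 3 transcription factors of the MiT/TFE family. Each of the 51 symbols matched 1 of the 46078 Ensembl identifiers in the deposited table. All 51 passed the filter on low counts, which kept 16527 genes for testing. The rule itself uses no measured value, but the genes were chosen with earlier results of these data known.

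The data were bulk RNA sequencing of spinal cord tissue from mice of host strain C57BL6/cJ, in 12 libraries that form 4 groups of 3. The groups were spinal cord injury followed by a transplant of syngeneic mesenchymal stem cells (called syngeneic below), spinal cord injury followed by a transplant of allogeneic mesenchymal stem cells (allogeneic), spinal cord injury with no transplant named (SCI), and non-injured cord. Mesenchymal stem cells are stromal cells that are grown in culture and given as a cell therapy. Syngeneic cells come from a donor genetically matched to the host, and allogeneic cells from an unmatched donor of the same species. The series asks how a transplant of each kind changes the injured cord. The donor strain, the number of cells, the time after injury, the sex and the age of the mice, and whether each library is a separate animal, could not be read from the labels, so the p-values measure only the spread between these samples.

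Libraries held 8705942 to 26151928 counts. Levels are given as CPM (counts scaled to a common library size) when 1 gene is compared between groups, and as RPKM (CPM per kilobase of exon) when genes are compared with each other. A gene was called when its adjusted p from edgeR's quasi-likelihood test lay under 0.05. Before the results, 3 libraries need naming. Non-injured replicate 3 had 10.9% of its counts in mitochondrial genes, while the remaining 11 libraries had at most 8.80%, and lay apart from the other non-injured libraries on the second principal component. On the first principal component syngeneic replicate 3 was at 27.4, against -12.9 and -27.2 for the other syngeneic libraries, allogeneic replicate 1 was at 24.9, against 57.0 and 50.01 for the other allogeneic libraries, and the SCI libraries were at 29.6 to 39.0. No pair of libraries agreed within sampling noise. The tissue label held: the 10 neuronal markers summed to 6544 to 14056 CPM and the 8 oligodendrocyte markers to 23754 to 81421 CPM over the 12 libraries, and none of them was at 0 in any library.

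The lysosome is the organelle in which cells digest proteins, lipids and sugars taken up from outside or delivered by autophagy. The V-ATPase pumps protons into it: the V1 sector burns ATP and the V0 sector carries the protons through the membrane. The acid activates cathepsins and glycosidases, mucolipins release calcium from the lumen, and LAMP proteins coat the inner face of the membrane. TFEB, TFEC, MITF and TFE3 bind a palindromic sequence known as the CLEAR element in the promoters of many lysosomal genes. After injury to the cord, microglia and incoming macrophages engulf dead cells and myelin debris, and both cell types are rich in lysosomes.

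Promoter sequences were read because MiT/TFE factors are among the 51 genes and their binding letters are known. RefSeq promoter windows on GRCm38.p6 (300 bases: 250 before to 50 after a start) were found for 44 of the 51 genes, with 53 windows in all. The letters CACGTG, the core of the CLEAR element, were searched; they read the same on both strands. They stood in a window of 16 of the 44 genes (36.4%), against 8.09% of the 27025 genes with a window and 11.1% of the 12226 such genes tested here. The longer palindrome TCACGTGA, which contains CACGTG, stood in 7 of the 44 (15.9%), against 1.12% of all genes with a window and 1.98% of those tested. The same palindrome with a further G before it and C after it was found in 0 of the 44 and in 0.37% of all genes with a window. Lysosomal genes outside the members also held these letters more often than all genes did. Of 58 such genes with a window, 11 (19.0%) held CACGTG, 6 (10.3%) held TCACGTGA and 2 (3.45%) held the longest palindrome. A set of 6 windows is shown for the genes on which the comparisons below turn: the 3 mucolipins, of which Mcoln2 and Mcoln3 rose in injury and Mcoln1 was not called, the 2 cathepsins Ctsd and Ctss, which rose, and Atp6v0d1, the widely expressed V0 subunit d. Each runs 5′ to 3′ along its gene from 250 bases before the start to 20 bases after it, and capitals mark CACGTG or, where it is complete, TCACGTGA. The Mcoln1 window is at chr8:3500269-3500538 (plus strand), Mcoln2 at chr3:146149924-146150193 (plus), Mcoln3 at chr3:146121541-146121810 (plus), Ctsd at chr7:142387808-142388077 (minus), Ctss at chr3:95526536-95526805 (plus) and Atp6v0d1 at chr8:105566045-105566314 (minus).
Mcoln1: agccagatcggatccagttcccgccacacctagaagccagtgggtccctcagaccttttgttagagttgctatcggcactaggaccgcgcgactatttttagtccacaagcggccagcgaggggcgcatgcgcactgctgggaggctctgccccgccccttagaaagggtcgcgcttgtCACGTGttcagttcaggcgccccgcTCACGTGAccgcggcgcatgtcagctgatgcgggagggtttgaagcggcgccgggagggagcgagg
Mcoln2: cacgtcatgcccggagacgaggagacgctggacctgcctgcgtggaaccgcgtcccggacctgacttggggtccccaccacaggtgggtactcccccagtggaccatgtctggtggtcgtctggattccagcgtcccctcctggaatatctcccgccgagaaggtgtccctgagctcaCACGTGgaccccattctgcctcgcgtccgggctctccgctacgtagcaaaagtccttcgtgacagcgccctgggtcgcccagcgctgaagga
Mcoln3: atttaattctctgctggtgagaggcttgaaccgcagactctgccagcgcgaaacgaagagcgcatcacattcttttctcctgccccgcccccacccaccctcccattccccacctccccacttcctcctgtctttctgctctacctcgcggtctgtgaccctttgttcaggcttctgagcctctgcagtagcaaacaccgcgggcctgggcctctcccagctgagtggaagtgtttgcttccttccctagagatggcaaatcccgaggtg
Ctsd: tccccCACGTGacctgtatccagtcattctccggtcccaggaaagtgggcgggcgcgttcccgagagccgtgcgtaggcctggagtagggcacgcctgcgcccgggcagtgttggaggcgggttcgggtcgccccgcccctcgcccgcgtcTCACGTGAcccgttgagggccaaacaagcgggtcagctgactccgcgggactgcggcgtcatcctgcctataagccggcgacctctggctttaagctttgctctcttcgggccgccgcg
Ctss: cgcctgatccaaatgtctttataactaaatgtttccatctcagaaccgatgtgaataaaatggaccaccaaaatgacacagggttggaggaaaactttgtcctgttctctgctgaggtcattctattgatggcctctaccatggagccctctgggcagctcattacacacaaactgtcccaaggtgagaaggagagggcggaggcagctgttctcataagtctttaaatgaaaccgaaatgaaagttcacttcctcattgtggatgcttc
Atp6v0d1: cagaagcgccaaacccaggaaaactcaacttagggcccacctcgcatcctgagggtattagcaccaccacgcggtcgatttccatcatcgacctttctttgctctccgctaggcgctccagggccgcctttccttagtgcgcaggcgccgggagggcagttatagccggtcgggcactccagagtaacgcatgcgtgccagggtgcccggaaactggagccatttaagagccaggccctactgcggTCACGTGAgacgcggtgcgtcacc

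In these windows Mcoln1 and Ctsd each held the core 2 times, Mcoln2 and Atp6v0d1 held it 1 time, and Mcoln3 and Ctss did not hold it. In Mcoln1 the core began 71 and 45 bases before the start, and in Mcoln2 it began 72 bases before. The core was present in 7 of 25 genes with a window that were higher in SCI than in non-injured cord, in 9 of 17 that were not called and in 0 of 2 that were lower. A match of letters is a description of the sequence and not of binding.

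Compared with non-injured cord, 28 of the 51 genes were higher in SCI, 4 were lower and 19 were not called. Over all 16527 genes tested, 16.6% were called higher and 9.26% lower. The median log2 fold change was 0.71 over the 51 genes and 0.008 over all genes tested. In non-overlap of libraries, all 3 SCI libraries lay above all 3 non-injured libraries for 33 of the 51 genes and below them for 8, against 26.3% and 21.2% of all genes tested. The 51 genes together took 1.62% to 1.98% of counts in tested genes in SCI, against 0.769% to 0.856% in non-injured cord. By role, proteases, membrane proteins, glycosidases and lipid-handling proteins supplied 24 of the 28 higher genes, and the 4 lower genes were all V1 subunits. The remaining 4 higher genes were Mcoln2, Mcoln3, the V0 subunit Atp6v0d2 and the factor Tfec. Without non-injured replicate 3, the library with the high mitochondrial share, 30 were higher and 5 lower, where 15.9% and 7.84% of all genes tested were.

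**Figure D1:**
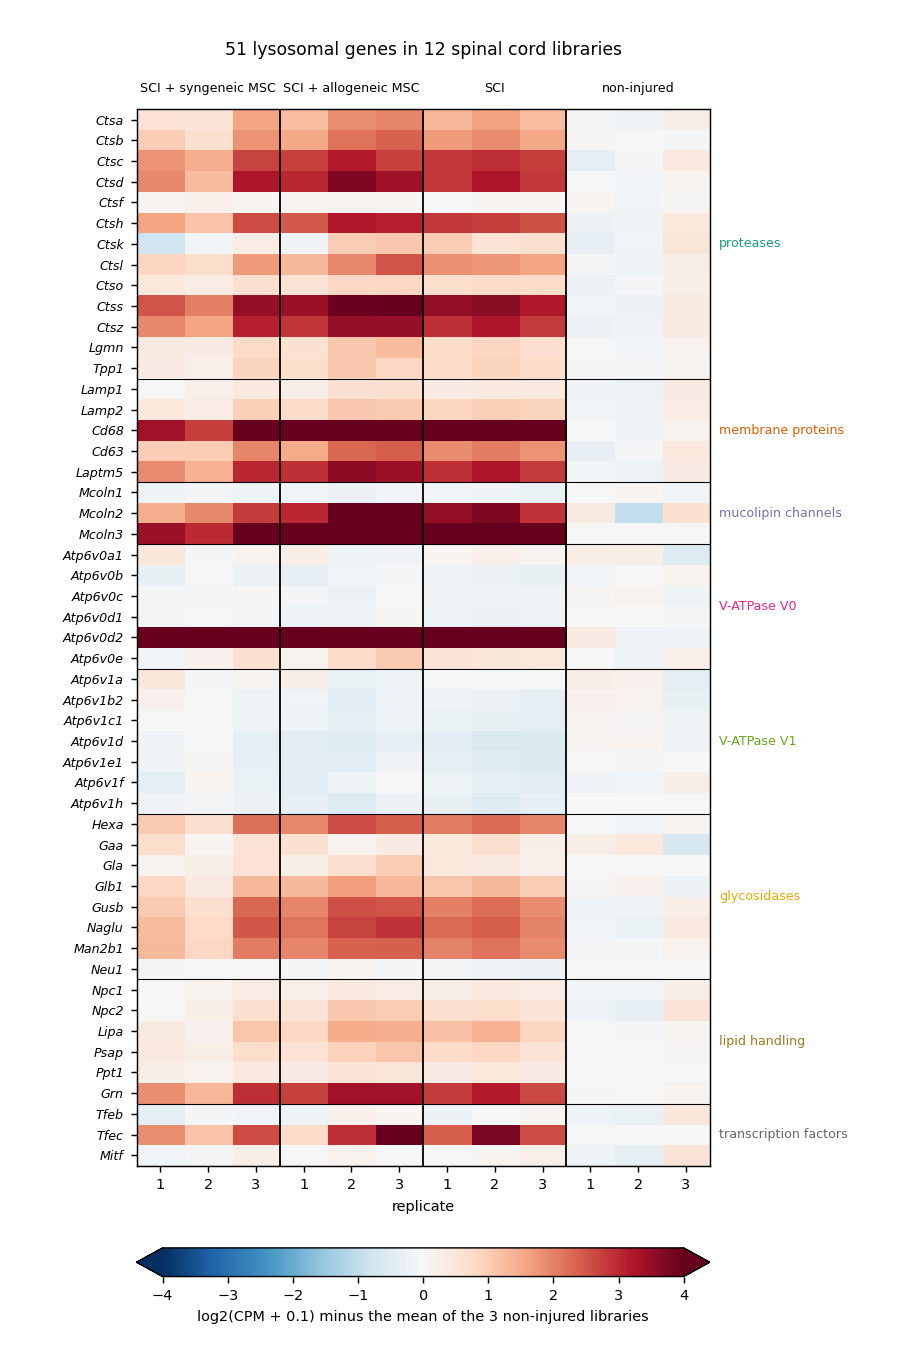
Level of each of the 51 genes in each of the 12 libraries, as log2(CPM + 0.1) minus the mean of the 3 non-injured libraries, with replicates 1 to 3 of each group on the x axis and genes by role on the y axis; the colour scale stops at 4 in either direction. The cathepsins Ctsc, Ctsd, Ctsh, Ctss and Ctsz, Cd68, Laptm5 and Grn are red in all SCI libraries and paler in syngeneic replicates 1 and 2, while most V-ATPase rows are close to white in every library.

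Of the 13 proteases, 11 were higher in SCI, with a median log2 fold change of 1.72. Cathepsin S (Ctss), a cysteine protease of microglia and macrophages that trims the invariant chain of class II histocompatibility molecules, had 869.8, 917 and 689.9 CPM in the SCI libraries, against 69.6, 63.4 and 96.7 CPM in non-injured libraries. The SCI libraries lay far above the non-injured libraries, and the difference was 10.8-fold (log2 fold change 3.43, SE 0.36, adjusted p = 0.000157). Ctss lies at chr3:95526786-95556403 on GRCm38. Cathepsin C (Ctsc), which activates serine proteases of granulocytes and other immune cells, had 80.4, 88.8 and 77.2 CPM in SCI and 8.77, 11.1 and 14.97 CPM in non-injured cord (log2 fold change 2.83, SE 0.31, adjusted p = 0.000171). Cathepsin H (Ctsh), an aminopeptidase, had 113, 108 and 92.5 CPM in SCI and 13.3, 13.99 and 21.2 CPM in non-injured cord (log2 fold change 2.69, SE 0.35, adjusted p = 0.000417). In both genes the lowest SCI library was above the highest non-injured one. Cathepsin Z (Ctsz) and the aspartic protease cathepsin D (Ctsd) rose by similar amounts, 7.87-fold and 7.85-fold. For Ctsd, 34.4% of the exon length is shared on the same strand with the gene model Gm49369, so part of its count could belong to either. Of the exon length of Ctsb, 12.8% lies opposite Fdft1.

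Cathepsins B and L, the broad cysteine endopeptidases, rose by 1.73 and 1.72 on the log2 scale, and the serine carboxypeptidase cathepsin A (Ctsa) by 1.39. Of the Ctsl exon length, 26.8% lies opposite an antisense gene model, so its counts are uncertain if strand was not used. On the same strand, 6.09% of that length is shared with the pseudogene Gm49230, so part of the Ctsl count could belong to either. The asparaginyl endopeptidase legumain (Lgmn), which processes other cathepsins, had 418, 450.4 and 395 CPM in SCI, against 245, 232 and 272 CPM in non-injured cord. The groups did not overlap, and the log2 fold change was 0.75 (SE 0.17, adjusted p = 0.00900). Tpp1, a tripeptidyl peptidase mutated in a neuronal ceroid lipofuscinosis, and Ctso rose by 0.79 and 0.71. The other 2 proteases were not called. Cathepsin F (Ctsf) had 56.7, 60.5 and 59.9 CPM in SCI and 59.4, 51.6 and 58.04 CPM in non-injured cord, and these ranges overlapped (log2 fold change 0.07, 95% interval -0.12 to 0.25). Cathepsin K (Ctsk), the collagenase of bone-resorbing osteoclasts, had 20.8, 14.9 and 15.9 CPM in SCI, against 7.89, 9.37 and 14.5 CPM in non-injured cord, and its log2 fold change of 0.70 had an adjusted p of 0.164.

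Among the 5 membrane proteins, Cd68, Laptm5, Cd63 and Lamp2 were higher and Lamp1 was not called. Cd68, the heavily glycosylated macrosialin of macrophage and microglial lysosomes, had 147, 186 and 122 CPM in SCI libraries, against 5.37, 4.81 and 5.90 CPM in non-injured ones. No other member with counts in every library changed as much: it was 28.3-fold higher (log2 fold change 4.82, SE 0.57, adjusted p = 0.000242). Laptm5, a lysosomal protein of blood-derived cells, rose by 2.98 on the log2 scale, and the tetraspanin Cd63 by 1.88. Lamp1 and Lamp2, the pair of LAMP proteins that most cells carry, gave smaller values. Lamp2 rose by 0.90 (SE 0.18, adjusted p = 0.00448). Lamp1 had 1034, 1068 and 1064 CPM in SCI and 751, 707 and 1034 CPM in non-injured cord. Its SCI libraries were all just above non-injured replicate 3, and its log2 fold change of 0.35 had an adjusted p of 0.157.

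Of the 3 mucolipins, Mcoln2 and Mcoln3 were higher in SCI and Mcoln1 was not called; the difference between the 3 was not tested. Mcoln1 (TRPML1), the widely expressed lysosomal channel whose loss causes mucolipidosis type IV in humans, had 48.7, 46.8 and 43.8 CPM in SCI libraries and 53.5, 55.97 and 48.6 CPM in non-injured ones. The ranges overlapped, and the log2 fold change was -0.18 (95% interval -0.38 to 0.02, adjusted p = 0.164). Mcoln2 (TRPML2), a mucolipin of immune cells, had 2.14, 2.53 and 1.36 CPM in SCI, against 0.155, 0 and 0.205 CPM in non-injured cord, from 105 and 8 counts in total. All SCI libraries were higher (log2 fold change 3.90, SE 0.68, adjusted p = 0.00204). Mcoln3 (TRPML3), known for the deaf varitint-waddler mouse, in which it carries a dominant mutation, had 8.76, 9.11 and 3.91 CPM in SCI and no count in any non-injured library. Mcoln3 had 378 counts over the SCI libraries and none over the non-injured libraries. Set against a floor of 3 counts for the non-injured group, it was 148-fold higher in SCI (adjusted p = 0.00288, edgeR). The lower limit of the 95% counting interval of this ratio, taken without the floor, was 120. Mcoln3 and Mcoln2 are neighbours on chromosome 3 (chr3:146117450-146141806 and chr3:146149833-146195513, GRCm38), 8026 bases apart, with no protein-coding gene between them, whereas Mcoln1 lies on chromosome 8. Per kilobase the levels remained unequal in SCI: 6.15 ± 0.32 RPKM for Mcoln1, 2.09 ± 0.84 for Mcoln3 and 0.611 ± 0.181 for Mcoln2 (SD, n = 3).

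Of the 6 V0 subunits, Atp6v0d2 alone was called. Subunit d joins the V0 sector to the rotor of V1 and has 2 genes in the mouse, the widely expressed Atp6v0d1 and Atp6v0d2, which is known from osteoclasts, kidney and macrophages. Atp6v0d2 had 29.7, 26.7 and 14.6 CPM in the SCI libraries, against 0.0387 CPM in non-injured replicate 1 and 0 in the other non-injured libraries. These are 1230 counts against 1 count, a ratio of 1447 with a 95% counting interval of 259 to 57206, which covers counting error only (adjusted p of the fit = 0.00223). Atp6v0d1 had 176, 168 and 170.0 CPM in SCI libraries and 200.2, 198 and 192 CPM in non-injured ones. The SCI libraries were all lower, by -0.20 on the log2 scale, but the adjusted p was 0.122 and only DESeq2 among the alternatives called it. Per kilobase Atp6v0d1 remained the more abundant of the pair in SCI, at 95.6 ± 2.5 RPKM, against 8.72 ± 2.94 RPKM for Atp6v0d2 (SD, n = 3). The other V0 subunits had log2 fold changes from -0.23 (Atp6v0b) to 0.48 (Atp6v0e), none called. Atp6v0a1, the main a subunit of neurons, had 300.4, 322 and 302 CPM in SCI and 341, 335 and 196 CPM in non-injured cord, where replicate 3 was the lowest of the 6 libraries.

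None of the 7 V1 subunits among the members was called higher. All 7 log2 fold changes in SCI against non-injured cord were negative, from -0.52 to -0.02, although Atp6v1a was positive with library totals in place of the scaling factors (0.03), under limma-voom, and without SCI replicate 3 or non-injured replicate 1 or 2. Atp6v1c1, Atp6v1d, Atp6v1e1 and Atp6v1h were called lower. Atp6v1d, part of the central rotor shaft, had 128, 116 and 119 CPM in SCI libraries, against 185, 181 and 155 CPM in non-injured ones (log2 fold change -0.52, SE 0.11, adjusted p = 0.00667). Atp6v1e1, part of the outer stalk, had 213, 197 and 193 CPM in SCI, against 284, 273 and 282 CPM in non-injured cord (log2 fold change -0.48, SE 0.12, adjusted p = 0.0140). The groups did not overlap in either gene, and the SCI level was 0.696 of the non-injured one for Atp6v1d and 0.718 of it for Atp6v1e1. Atp6v1h and Atp6v1c1 were lower by 0.40 and 0.31 on the log2 scale. These calls moved with single libraries: only Atp6v1d was still called without SCI replicate 2 or without SCI replicate 3, and 5 V1 subunits were called without non-injured replicate 3. Lower calls also fell over all genes tested. They were 1530 of 16527 with all libraries, 460 of 16736 without SCI replicate 2 and 620 of 16838 without SCI replicate 3. Atp6v1a, the catalytic subunit A, had 397, 399.7 and 392 CPM in SCI and 458, 441 and 301 CPM in non-injured cord, a difference of -0.02 with a 95% interval of -0.43 to 0.40.

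**Figure D2:**
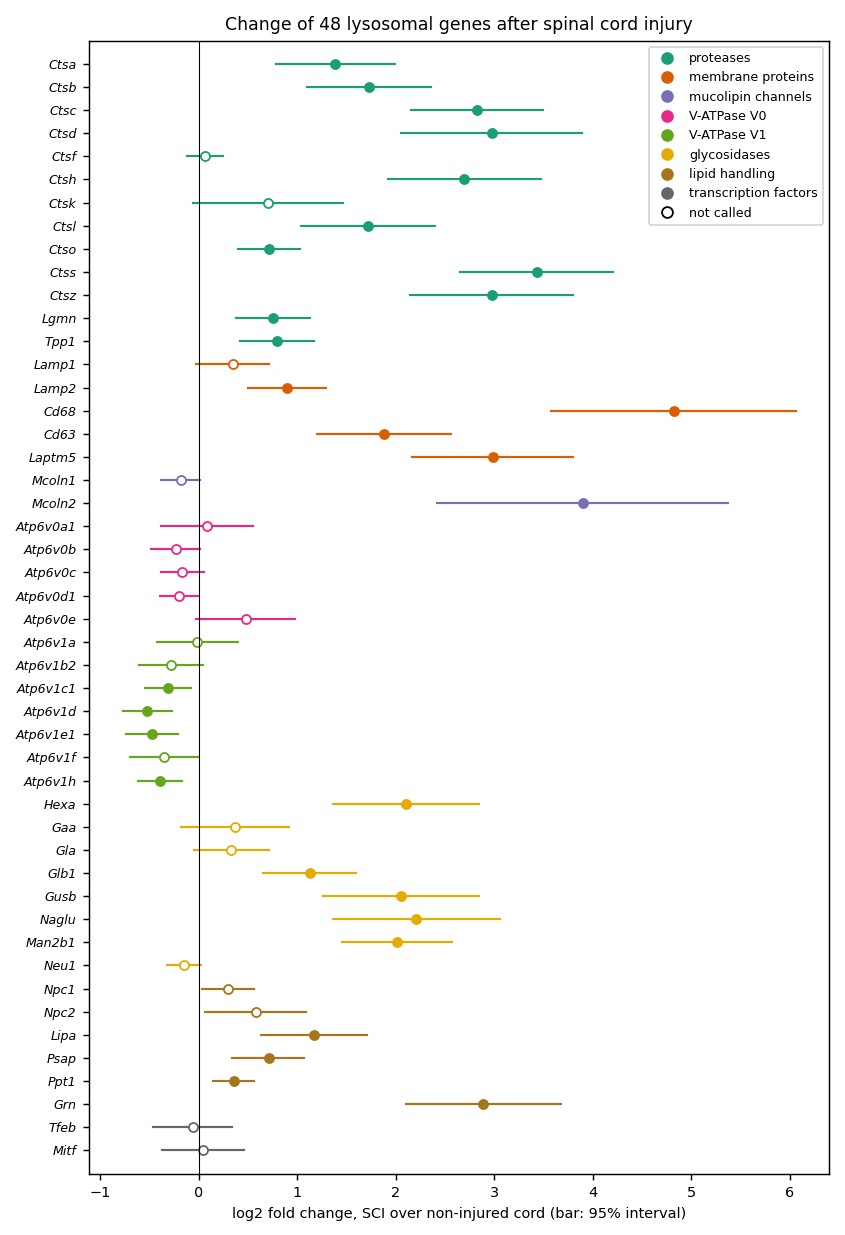
Log2 fold change of SCI over non-injured cord with its 95% interval for 48 of the 51 genes, coloured by role, filled where called; Mcoln3, Atp6v0d2 and Tfec are left out because non-injured cord held 0 or 1 counts of each. Proteases, membrane proteins and most glycosidases lie to the right of 0, up to 4.82 for Cd68, and the V1 subunits lie at or left of 0, down to -0.52 for Atp6v1d.

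Of the 8 glycosidases, 5 were higher in SCI. Naglu, which cuts the terminal residue of heparan sulphate and is mutated in Sanfilippo syndrome type B, had 37.5, 40.7 and 31.1 CPM in SCI and 7.07, 6.37 and 10.2 CPM in non-injured cord. The SCI libraries were all higher, by 4.63-fold (log2 fold change 2.21, SE 0.39, adjusted p = 0.00208). Hexa, Gusb and the mannosidase Man2b1 rose by 2.11, 2.05 and 2.01 on the log2 scale, and the beta-galactosidase Glb1 by 1.12. Glb1 shares 5.49% of its exon length with Tmppe on the same strand, and 12.8% of that of Hexa lies opposite Tmem202. Neu1, the sialidase, had 45.95, 42.6 and 41.2 CPM in SCI, against 48.8, 48.03 and 47.2 CPM in non-injured libraries. All 3 SCI libraries of Neu1 were slightly lower, and the log2 fold change of -0.15 was not called (adjusted p = 0.185). Gaa, the acid alpha-glucosidase of glycogen, and Gla, the alpha-galactosidase of Fabry disease, had log2 fold changes of 0.37 and 0.33 with adjusted p of 0.312 and 0.190. Neu1, Ctsa and Glb1 are held in a single complex in the lysosome; of these, Ctsa and Glb1 were called higher and Neu1 was not.

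Of the 6 genes of lipid and saposin handling, 4 were higher. Grn encodes progranulin, whose loss causes a lipofuscinosis and a frontotemporal dementia in humans. It had 323, 423 and 288 CPM in SCI and 43.6, 46.03 and 49.9 CPM in non-injured cord, with no overlap (log2 fold change 2.89, SE 0.36, adjusted p = 0.000315). Lipa, the acid lipase that frees cholesterol from its esters, rose by 1.17, Psap, the precursor of the saposins, by 0.71, and the thioesterase Ppt1 by 0.35. Ppt1 lost its call in 4 of the 6 fits that each left out 1 library of either group. The pair that exports cholesterol from the lysosome was not called, although both had positive values. Npc1 had 184, 206 and 192 CPM in SCI and 146, 145 and 184 CPM in non-injured cord (log2 fold change 0.29, adjusted p = 0.0972). Npc2 had a log2 fold change of 0.58 and an adjusted p of 0.0957.

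Of the 3 transcription factors, Tfec was higher and Tfeb and Mitf were not called. Tfeb, the factor best known for turning on lysosomal genes, had 22.7, 27.2 and 29.2 CPM in SCI and 23.5, 22.6 and 36.6 CPM in non-injured cord. Mitf, the factor of melanocytes and osteoclasts, had 21.3, 22.3 and 24.3 CPM in SCI and 18.9, 16.7 and 30.4 CPM in non-injured cord. Both pairs of groups overlapped, with 95% intervals of the log2 fold change of -0.47 to 0.34 for Tfeb and -0.38 to 0.46 for Mitf. Tfec, the family member restricted to macrophages and related cells, had 0.429, 1.26 and 0.510 CPM in SCI and no count in non-injured libraries. Its 39 counts over the SCI libraries put it 15.3-fold above the same floor of 3 counts, with an adjusted p of 0.0189 in edgeR. The lower limit of its 95% counting interval was 11.9. The Tfec call rests on few counts and was lost in 2 of the 6 fits that left out 1 library of these groups.

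**Figure D3:**
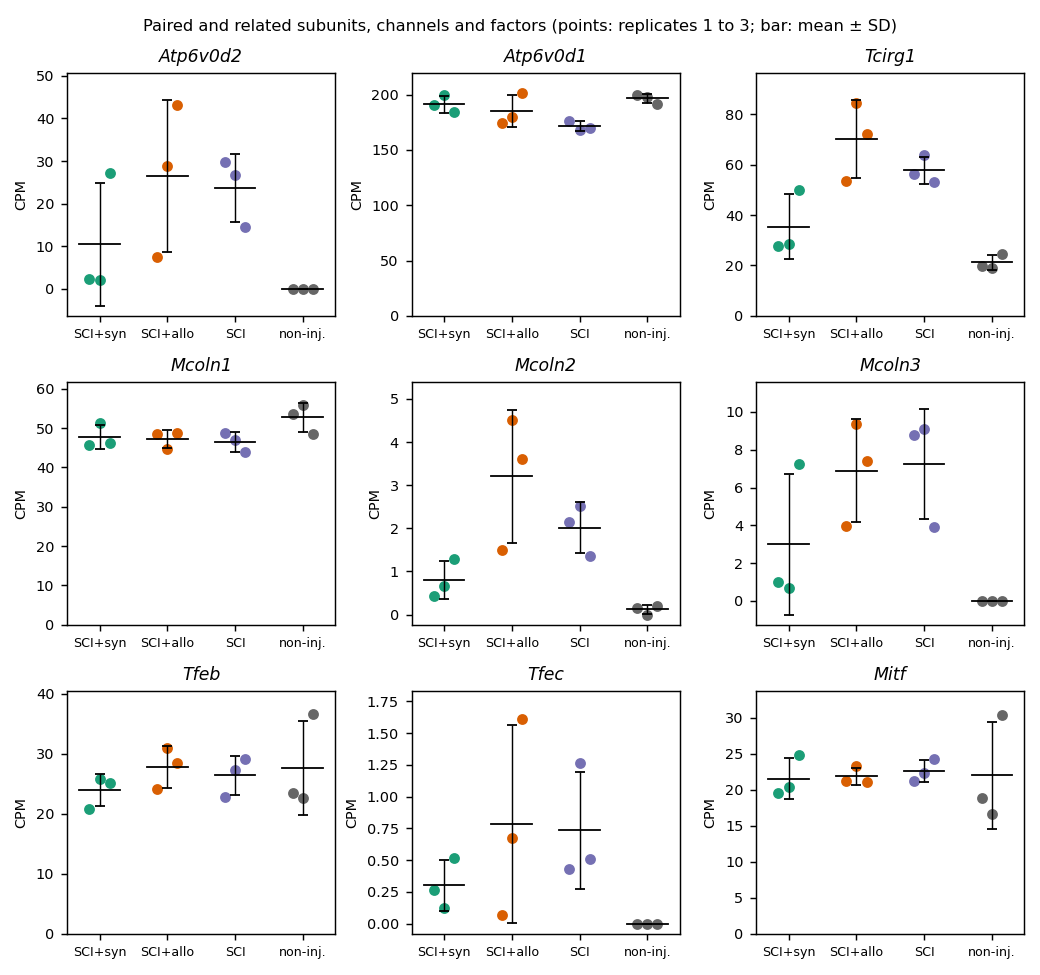
CPM of Atp6v0d2, Atp6v0d1 and Tcirg1, of the 3 mucolipins and of Tfeb, Tfec and Mitf by group; points are replicates 1 to 3, the horizontal line is the mean and the bar is ± SD (n = 3). Atp6v0d2, Mcoln2, Mcoln3 and Tfec are at or close to 0 in non-injured cord and present in SCI, while Atp6v0d1, Mcoln1, Tfeb and Mitf overlap or differ little between groups, and syngeneic replicate 3 stands above syngeneic replicates 1 and 2 for Atp6v0d2 and Mcoln3.

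The order of the members by level was not the same in SCI as in non-injured cord. Per kilobase in SCI, Ctsd led with 1415 ± 244 RPKM, followed by Psap with 935 ± 99, Ctss with 608 ± 88, Lamp1 with 394.5 ± 6.8 and Ctsb with 394 ± 49 (SD, n = 3). Ctsd and Psap differed by more than their SDs, as did Psap and Ctss, whereas Lamp1 and Ctsb did not. In non-injured cord Psap led with 572 ± 13 RPKM, followed by Lamp1 with 310 ± 66, Ctsd with 180.2 ± 12.8, Ctsb with 119.0 ± 3.1, Atp6v1b2 with 115 ± 19 and Atp6v0d1 with 109.8 ± 2.4. Neither Ctsb nor Atp6v0d1 differed from Atp6v1b2 beyond their SDs. Ctss was in place 12 of 51 in non-injured cord, and Cd68 was in place 42 there and in place 8 in SCI. A change in a bulk library can come from more cells of a type or from more RNA per cell, and these cannot be told apart here.

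Lysosomal genes outside the 51 were listed by role and counted in the same way. Of 77 such genes, 71 were tested: 35 were higher in SCI, 7 lower and 29 not called, with a median log2 fold change of 0.40. Over all genes tested, 16.6% were called higher and 9.26% lower, and the lower count of this list was near that share. Enzymes had 15 higher of 21 tested and none lower. Ctse, an aspartic protease of immune cells, rose by 4.25. Among membrane and transport proteins 12 of 20 were higher and 2 lower, and the 2 with the smallest p were the metal transporter Slc11a1 of phagosomes (log2 fold change 4.30) and Gpnmb (7.21). Of the 8 other V-ATPase subunits tested, 3 were higher and 3 lower. Tcirg1, the a3 subunit of osteoclasts and macrophages, had 56.2, 63.8 and 53.01 CPM in SCI and 19.8, 19.1 and 24.7 CPM in non-injured cord (log2 fold change 1.44, adjusted p = 0.00143). Atp6ap2, an accessory subunit, fell by 0.39 (adjusted p = 0.0187). Log2 fold changes of these 8 subunits ran from -0.61 to 3.55, so that of Tcirg1 was not the largest. Of the a and d subunits of V0 given values here, Tcirg1 and Atp6v0d2 rose, while Atp6v0a1 and Atp6v0d1 were not called. The a subunit genes Atp6v0a2 and Atp6v0a4 were also listed, and their values are not given here.

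Of 10 sorting genes only Sumf1, which activates sulphatases, and Igf2r, a mannose-6-phosphate receptor, were higher, by 0.60 and 0.55. Of 8 regulators, Tfe3, the remaining MiT/TFE factor, had 46.3, 49.03 and 45.7 CPM in SCI, against 30.6, 31.2 and 33.3 CPM in non-injured cord. Tfe3 rose by 0.57 (adjusted p = 0.00273), while Rraga, a GTPase that recruits mTORC1 to lysosomes, was lower by 0.33. With 1 of 8 regulators and 2 of 10 sorting genes higher, both lists were near the 16.6% of all genes tested called higher. The 1 lower regulator of 8 was also near the 9.26% called lower. The cystatins, which inhibit cysteine cathepsins, had 2 higher and 1 lower of 4. Cst7, an inhibitor of cathepsin C activation, had 39.03, 52.9 and 41.1 CPM in SCI and 0.348, 0.187 and 0.205 CPM in non-injured cord (log2 fold change 7.38, adjusted p = 8.75e-05).

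Markers of the cell types that carry many of these proteins moved with them. The counts below stand beside 16.6% of all genes tested called higher in SCI and 9.26% called lower. All 10 microglial markers were higher in SCI, with a median log2 fold change of 2.14, and summed to 1546 to 1834 CPM in SCI, against 324 to 464 CPM in non-injured cord. All 9 tested of 10 monocyte and macrophage markers were higher, with a median of 3.38, and summed to 909 to 1354 CPM in SCI and 36.2 to 48.2 CPM in non-injured cord. Of the 7 neutrophil markers tested, 6 were also higher, with sums of 73.8 to 102 CPM in SCI and 13.7 to 20.1 CPM in non-injured cord. Of the 8 astrocyte markers, 5 were higher and 1 was lower. Their sums were 13301 to 14863 CPM in SCI and 6588 to 8147 CPM in non-injured cord. In the opposite direction, 6 of 10 neuronal markers were lower, with sums of 6544 to 8289 CPM in SCI and 11972 to 14056 CPM in non-injured cord. Lower calls were also made for 5 of 8 oligodendrocyte markers. Their sums overlapped, at 24876 to 33850 CPM in SCI and 33843 to 81421 CPM in non-injured cord, where replicate 3 was the highest. No microglial, macrophage or neuronal marker was at 0 in any library. The part of these cell types in the values above was not tested. Osteoclasts are listed because Ctsk, Tcirg1 and Atp6v0d2 are known from that cell. Of 8 osteoclast markers 5 were tested: Acp5 and Nfatc1 were higher, and Oscar, Car2 and Mmp9 were not called. Dcstamp, Ocstamp and Calcr were at or below 0.524 CPM in every library and were not tested. Acp5 is in both the enzyme and the osteoclast list.

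Against SCI, none of the 51 genes was called in the syngeneic group. Over all genes tested, 0.00605% were called higher and 0.0303% lower in this comparison. Of the 51, 36 had a negative log2 fold change, against 49.4% of all genes tested, with a median of -0.26 over the 51 and 0.004 over all genes. Of the 51, 10 had an unadjusted p under 0.05, against 13.5% of all genes tested, and none was called by DESeq2 or limma-voom. The direction differed by role. Median log2 fold changes were -0.57 in proteases, -0.52 in membrane proteins and -0.39 in glycosidases, and 0.27 in V1 subunits, of which all 7 were positive. These medians moved with single libraries: without syngeneic replicate 2 they were -0.27 in proteases, -0.35 in membrane proteins and -0.13 in glycosidases, and without syngeneic replicate 3 they were -0.97, -0.94 and -0.76. Over all 51 genes the median was -0.18 without syngeneic replicate 2 and -0.51 without syngeneic replicate 3. The 4 genes with the smallest p were 2 of each kind. Atp6v1d had 155, 169.9 and 135 CPM in the syngeneic libraries, against 128, 116 and 119 CPM in SCI libraries, and Atp6v1e1 had 252, 288 and 222 CPM in syngeneic libraries, against 213, 197 and 193 CPM in SCI ones. In both, every syngeneic library was above every SCI library, with log2 fold changes of 0.34 and 0.34 and adjusted p of 0.313 and 0.315. Ctsc had 39.2, 31.5 and 74.4 CPM in syngeneic libraries, against 80.4, 88.8 and 77.2 CPM in SCI (log2 fold change -0.77, 95% interval -1.39 to -0.15, adjusted p = 0.319). Mcoln2 had 0.437, 0.654 and 1.28 CPM in syngeneic libraries, against 2.14, 2.53 and 1.36 CPM in SCI (log2 fold change -1.39, 95% interval -2.55 to -0.23, adjusted p = 0.322).

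The syngeneic libraries were not alike. The 28 genes that were higher in SCI than in non-injured cord were chosen with these same SCI and non-injured libraries. For all 28, syngeneic replicates 1 and 2 lay below the lowest SCI library, yet above the highest non-injured library. The same held for 51.5% of the 2736 genes called higher in SCI over the whole table, and syngeneic replicates 1 and 2 lay below the SCI range for 85.9% and 95.4% of them. Syngeneic replicate 3 lay within the SCI range for 21 of the 28, below it for 3 and above it for 4, against 48.9%, 42.2% and 8.88% of the 2736 genes. Ctss shows the pattern, with 429, 308 and 840.1 CPM in syngeneic replicates 1, 2 and 3, against 690 to 917 CPM in SCI. Cd68 had 55.2, 37.2 and 177 CPM in the syngeneic libraries, against 122 to 186 CPM in SCI. Atp6v0d2 had 2.27, 2.08 and 27.2 CPM in syngeneic libraries, against 29.7, 26.7 and 14.6 CPM in SCI, and Mcoln3 had 1.01, 0.694 and 7.26 CPM, against 8.76, 9.11 and 3.91 CPM in SCI. In these 4 genes syngeneic replicate 3 was the highest syngeneic library by a wide margin. Without syngeneic replicate 3, 18 genes were lower than in SCI, among them Ctss, Ctsd, Ctsc, Ctsh, Cd68, Naglu, Grn, Mcoln3 and Atp6v0d2. In that fit 4.76% of all genes tested were called lower, against 0.0303% with all libraries, so calls rose across all genes. Without replicate 1 or without replicate 2, the count was 0, as it was over all 16754 and 16762 genes tested in those fits. The 18 calls come from a fit with 2 syngeneic libraries and were chosen by leaving out the library that differed, so they describe those 2 libraries.

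Syngeneic replicates 1 and 2 also stood apart from replicate 3 in microglial and macrophage markers, but not in every marker list. The microglial markers summed to 768 to 1639 CPM in the syngeneic libraries, against 1546 to 1834 CPM in SCI, and none of the 10 was called between these groups. The monocyte and macrophage markers summed to 257, 381 and 1291 CPM from the lowest to the highest syngeneic library, against 909 to 1354 CPM in SCI, again with 0 of 9 called. The highest syngeneic sums of both lists were those of replicate 3. Neuronal markers summed to 8493 to 11592 CPM in syngeneic libraries, against 6544 to 8289 CPM in SCI. Neutrophil markers summed to 37.8, 39.1 and 55.5 CPM in syngeneic replicates 1, 2 and 3, all below the 73.8 to 102 CPM in SCI. Oligodendrocyte markers summed to 23754, 43773 and 27143 CPM in the same order, against 24876 to 33850 CPM in SCI. Astrocyte markers summed to 11445, 9833 and 13686 CPM, against 13301 to 14863 CPM in SCI. The part of these cell types in the lower cathepsin values and higher V1 values, none of them called, was not tested.

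**Figure D4:**
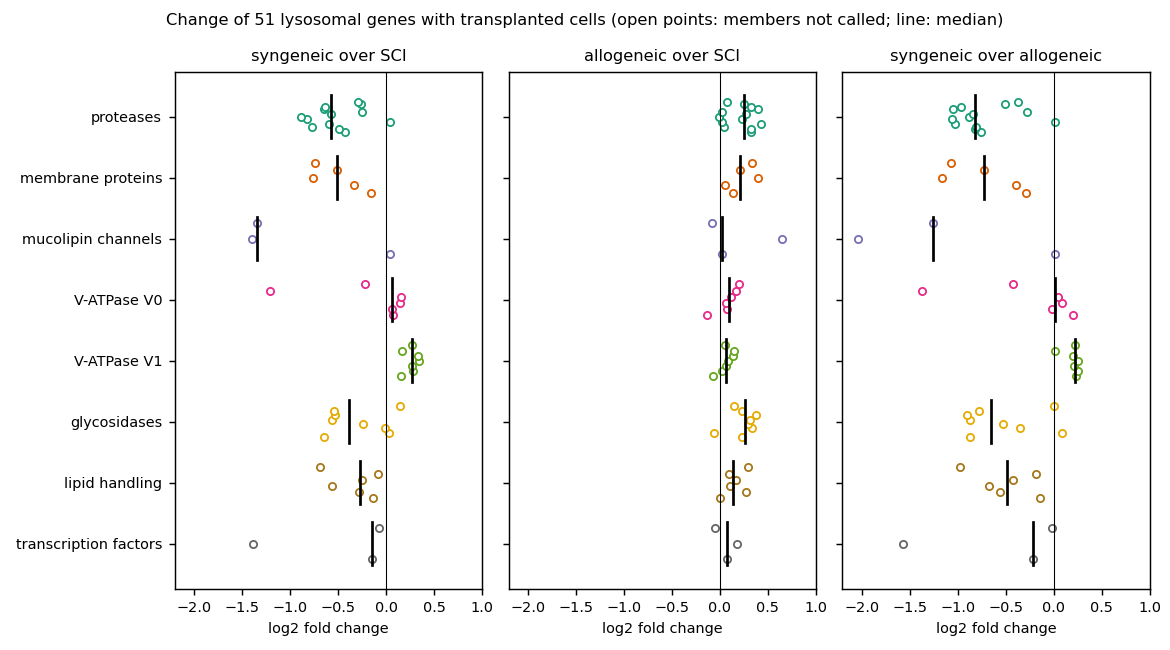
Log2 fold changes of the 51 genes by role in syngeneic over SCI, allogeneic over SCI and syngeneic over allogeneic; each open point is a gene, none of which was called, and the black line is the median of the role. Proteases, membrane proteins and glycosidases lie mostly left of 0 in the panels that show the syngeneic group and right of 0 in allogeneic over SCI, and V1 subunits lie right of 0 in the panels that show the syngeneic group.

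Against SCI, none of the 51 genes was called in the allogeneic group either, where 0.169% of all genes tested were called higher and 0.0182% lower. The values leaned upward: 45 of the 51 log2 fold changes were positive and 6 negative, where 49.6% of all genes tested were negative, with a median of 0.14 over the 51 and 0.001 over all genes. That median was 0.29 without allogeneic replicate 1 and 0.05 without allogeneic replicate 3. None of the 51 had an unadjusted p under 0.05, against 2.94% of all genes tested, and DESeq2 and limma-voom called none. The largest shift by p was in Gla, which had 25.9, 35.4 and 43.8 CPM in allogeneic libraries, against 29.4, 28.6 and 25.4 CPM in SCI (log2 fold change 0.34, 95% interval -0.04 to 0.72). Neu1 had 46.6, 50.7 and 45.9 CPM in allogeneic libraries, against 45.95, 42.6 and 41.2 CPM in SCI, and Lgmn had 379.7, 524 and 599.5 CPM, against 418, 450.4 and 395 CPM in SCI. Glb1 had 49.6, 63.5 and 50.7 CPM in allogeneic libraries, against 43.9, 49.6 and 40.03 CPM in SCI. In all 4 genes the groups overlapped, and the intervals of Neu1, Lgmn and Glb1 were -0.03 to 0.32, -0.12 to 0.63 and -0.17 to 0.75. Of the 28 genes higher in SCI, allogeneic replicate 2 lay above the SCI range for 26 and replicate 3 for 25, whereas replicate 1 lay below it for 14 and within it for 14. Of the 2736 genes called higher in SCI over the whole table, 55.6% lay above the SCI range in replicate 2 and 42.4% in replicate 3, and 53.2% lay below it in replicate 1. Atp6v0d2 had 7.46, 28.9 and 43.1 CPM in the allogeneic libraries, so its spread there was wider than in SCI.

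Between the transplants, syngeneic over allogeneic, none of the 51 genes was called by edgeR, where 0.0182% of all genes tested were called higher and 0.593% lower. The log2 fold change was negative for 37 of the 51, against 47.3% of all genes tested, with a median of -0.42 over the 51 and 0.02 over all genes. An unadjusted p under 0.05 was found for 24 of the 51, against 14.4% of all genes tested. Mcoln2 had 0.437, 0.654 and 1.28 CPM in syngeneic libraries, against 1.49, 4.51 and 3.60 CPM in allogeneic libraries. It was lower in every syngeneic library, with a log2 fold change of -2.04 (95% interval -3.19 to -0.89), an adjusted p of 0.149 in edgeR and of 0.0150 in DESeq2. Ctss had 429, 308 and 840.1 CPM in syngeneic libraries, against 806, 1137 and 1319 CPM in allogeneic ones (log2 fold change -1.05, adjusted p = 0.237 in edgeR and 0.0477 in DESeq2). Ctsh had 46.8, 34.6 and 95.8 CPM in syngeneic libraries and 86.8, 145 and 137 CPM in allogeneic ones (log2 fold change -1.06, adjusted p = 0.237). Man2b1 had 111, 79.6 and 184 CPM in syngeneic libraries and 173, 233 and 234 CPM in allogeneic ones (log2 fold change -0.78, adjusted p = 0.237). In Ctss, Ctsh and Man2b1 the groups met only because syngeneic replicate 3 was above allogeneic replicate 1. Mcoln2 and Ctss were the 2 members that DESeq2 called, where it called 334 of 16527 genes lower. All 7 V1 subunits were positive again, with a median of 0.22, although 1 of them was negative with library totals in place of the scaling factors, without allogeneic replicate 1 and without syngeneic replicate 2. Without syngeneic replicate 3, 24 members were lower than in the allogeneic group, where 6.73% of all genes tested were called lower in the same fit. The median over the 51 genes was then -0.70. The monocyte and macrophage markers summed to 257 to 1291 CPM in syngeneic libraries and 832 to 1693 CPM in allogeneic ones, and the microglial markers to 768 to 1639 and 1554 to 2098 CPM in the same order of groups; their part was not tested.

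**Figure D5:**
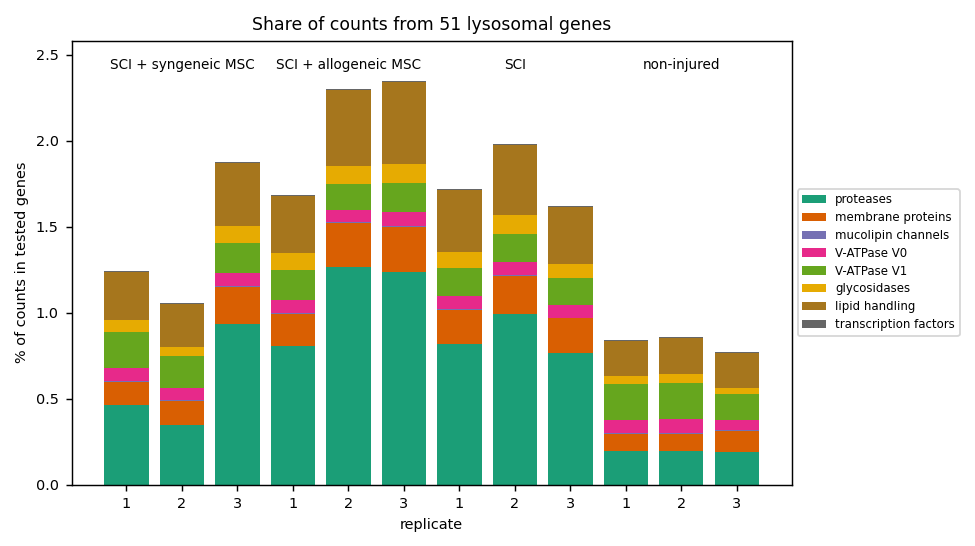
Share of the counts in tested genes that came from the 51 genes, stacked by role, in each of the 12 libraries. The share is 1.06% to 1.87% in syngeneic, 1.69% to 2.35% in allogeneic, 1.62% to 1.98% in SCI and 0.769% to 0.856% in non-injured libraries, and most of the difference lies in the proteases and the lipid-handling genes.

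Each transplanted group was also set against non-injured cord, with the same 3 non-injured libraries as in the SCI comparison. In the syngeneic group 17 of the 51 genes were higher and none lower, where 4.92% of all genes tested were called higher and 0.424% lower. In the allogeneic group 30 were higher and 2 lower, where 16.7% and 8.17% of all genes were. By role, the syngeneic group had 6 proteases, 3 membrane proteins, 5 glycosidases, Grn, Mcoln3 and Atp6v0d2 higher. The 5 glycosidases became 0 with the 2 groups alone, 2 under limma-voom, with no filter or without non-injured replicate 3, and 1 without syngeneic replicate 3 or without non-injured replicate 1 or 2. The 6 proteases became 1 with the 2 groups alone, and 10 without syngeneic replicate 2. Higher calls over all genes tested moved as well, from 813 of 16527 in the main fit to 168 of 16252 with the 2 groups alone. They were 571 of 16527 under limma-voom, 700 of 28448 with no filter and 663 of 16728 without non-injured replicate 3. Without syngeneic replicate 2 they were 1371 of 16762. Mcoln3 and Atp6v0d2 were not called with the 2 groups alone, with no filter or without any 1 of the non-injured libraries, and Atp6v0d2 was also not called under limma-voom. The allogeneic group had 11 proteases, 4 membrane proteins, 6 glycosidases, 5 lipid-handling genes, Mcoln2, Mcoln3, Atp6v0d2 and Tfec higher. The syngeneic count was 11 without syngeneic replicate 3, 8 without non-injured replicate 1 and 9 without non-injured replicate 2, where 2.54%, 2.04% and 2.53% of all genes tested were called higher. The allogeneic count of lower genes was 0 without allogeneic replicate 2 or without non-injured replicate 1 or 2, and 4 without non-injured replicate 3. Of all genes tested, 3.36%, 4.36%, 5.81% and 8.61% were called lower without these libraries in the same order. Ctss had a log2 fold change over non-injured cord of 2.78 in syngeneic, 3.83 in allogeneic and 3.43 in SCI libraries, and Cd68 one of 4.06, 5.22 and 4.82 in the same order. Atp6v1d, Atp6v1e1 and Atp6v1h were at -0.19, -0.14 and -0.13 in the syngeneic group, at -0.44, -0.34 and -0.35 in the allogeneic group, and at -0.52, -0.48 and -0.40 in SCI. None of these 3 was called in the syngeneic group, and Atp6v1d and Atp6v1h were called in the allogeneic group.

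The genes with almost no counts in non-injured cord were present in both transplanted groups. Atp6v0d2 had 526 counts over the syngeneic libraries and 1306 over the allogeneic ones, against 1 count in non-injured cord, for ratios of 513 and 1744 with counting intervals of 91.7 to 20304 and 312 to 68941. Mcoln3 had 153 and 304 counts in the same groups, at least 49.7-fold and at least 135-fold above the floor of 3 counts. Tfec had 17 counts in syngeneic libraries and 42 in allogeneic ones, 5.53-fold and 18.7-fold above that floor, with lower counting limits of 4.03 and 14.5. The Tfec difference was called in the allogeneic group (adjusted p = 0.0157) and not in the syngeneic group (adjusted p = 0.177). The difference between the transplants was not called for any of the 3 genes, with adjusted p of 0.481 for Atp6v0d2, 0.483 for Mcoln3 and 0.444 for Tfec. Tfec had 0.262, 0.123 and 0.514 CPM in the syngeneic libraries and 0.0649, 0.677 and 1.61 CPM in the allogeneic ones, which overlapped.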

How the data were processed

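Gene counts of 12 spinal cord libraries were used as the authors deposited them, as whole-number counts per Ensembl gene. Per the submitters' processing notes, build GRCm38 was used, with featureCounts 1.5.1, STAR 2.5.1 and other tools listed without roles or order. Per the labels' protocols, libraries were stranded and poly(A)-selected. For strand setting and multi-mapping reads nothing was given in the sources used here, so genes with overlapping exons are uncertain.

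Genes passing filterByExpr (minimum count 10, minimum total 15) were fitted in edgeR 4.0.16 (R 4.3.3) with TMM scaling, 1 mean per group over all 12 libraries, robust quasi-likelihood dispersion and Benjamini-Hochberg adjustment over all 16527 genes tested. The threshold was 0.05. DESeq2 1.42.0, limma-voom (limma 3.58.1), other scalings, no filter, the 2 groups alone and each library left out were alternatives. The fit was tested on simulated data. Symbols and exon lengths came from GENCODE on GRCm38. The members and lists were chosen with earlier results of these data known. Values per library are given for the members with the largest and smallest absolute log2 fold change by role in SCI against non-injured cord, the mucolipins, both d subunits, the 3 factors, and the 4 members with the smallest p where a comparison called none; of other lysosomal genes, the 2 with the smallest p per list are named. A result that this rule would name is not reported here. Other members given values were chosen after their values were seen. Counting intervals (95%) and the floor of 3 counts cover counting error only.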

Additional observations from a re-analysis of the deposited data

How the results depend on the processing

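No paired analysis was possible because the labels give no replicate numbers that groups share. The count of members higher in SCI than in non-injured cord was 26 to 30 over the alternatives, and the count lower was 1 to 5 when 1 library was left out. The lower count was 1 without SCI replicate 2 and 1 without SCI replicate 3. Over all genes tested, 460 of 16736 and 620 of 16838 were called lower in these fits, against 1530 of 16527 with all libraries. In syngeneic against SCI, 0 to 18 members were lower when 1 library was left out, with 18 without syngeneic replicate 3. In that fit 804 of 16876 genes tested were called lower, against 5 of 16527 with all libraries. In syngeneic against allogeneic, DESeq2 called 2 lower, and leaving out 1 library gave 0 to 24, with 24 without syngeneic replicate 3. Over all genes tested, the lower calls were 98 of 16527 in the main fit, 334 of 16527 by DESeq2 and 1135 of 16876 without syngeneic replicate 3. In syngeneic against non-injured cord, 17 were higher, against 11 with no filter, 2 of 49 members tested with the 2 groups alone, and 8 to 22 when 1 library was left out. Over all genes tested, the higher calls were 813 of 16527 in the main fit, 700 of 28448 with no filter and 168 of 16252 with the 2 groups alone. They were 341 of 16747 without non-injured replicate 1 and 1371 of 16762 without syngeneic replicate 2, the fits with 8 and 22 members. In allogeneic against non-injured cord, 2 were lower, against 0 with library totals, 4 by DESeq2, 0 with the 2 groups alone, and 0 to 4 when 1 library was left out. Over all genes tested, the lower calls were 1350 of 16527 in the main fit and 924 of 16527 with library totals. They were 1754 of 16527 by DESeq2 and 636 of 16082 with the 2 groups alone. The causes were not tested. None of the named members' values called here changed sign under an alternative. With 3 libraries a group and 8 residual degrees of freedom, small differences could not be detected, and Mcoln2, Mcoln3, Tfec and Atp6v0d2 rest on few counts in non-injured cord.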

Other observations

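Members lay next to each other on the chromosome in 3 pairs: Ctsk and Ctss, 17423 bases apart on chromosome 3, Mcoln3 and Mcoln2, 8026 bases apart on chromosome 3, and Atp6v0a1 and Naglu, 6292 bases apart on chromosome 11, with 0 protein-coding genes between the members of a pair. In SCI against non-injured cord, both mucolipins of the second pair were called higher, whereas Ctss and Naglu were called higher and their neighbours Ctsk and Atp6v0a1 were not.

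Ctsw, a cathepsin of cytotoxic lymphocytes that is outside the 51 genes, was singled out after its values were seen. It had 0.743, 0.613 and 0.899 CPM in syngeneic libraries, 7.46, 15.2 and 5.44 CPM in allogeneic libraries, 1.29, 0.769 and 1.02 CPM in SCI libraries and 0.271, 0.125 and 0.103 CPM in non-injured libraries. All 3 allogeneic libraries were above every other library. The log2 fold change was 3.17 in allogeneic over SCI (adjusted p = 0.00943, edgeR) and -3.63 in syngeneic over allogeneic (adjusted p = 0.00212, edgeR). The call against SCI was lost without SCI replicate 1, 2 or 3. In these fits 0 of 16880, 0 of 16736 and 0 of 16838 genes tested were called in either direction. Among the 21 other lysosomal enzymes tested, Ctsw was the 1 called in either comparison.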
